A study of Mus musculus with 4 samples.

Results

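The genes described here were *Pou3f1*, *Pou3f2*, *Pou3f3* and *Pou6f1*, taken by name as 4 of the 21911 protein-coding genes measured, together with the 6 of 579 transcription factor motifs whose names start with POU3F or POU6F. The genes lie at chr4:124656807-124660655 (*Pou3f1*, plus strand, ENSMUSG00000090125), chr4:22482780-22488366 (*Pou3f2*, minus strand, ENSMUSG00000095139), chr1:42695768-42703176 (*Pou3f3*, plus strand, ENSMUSG00000045515) and chr15:100575318-100599984 (*Pou6f1*, minus strand, ENSMUSG00000009739) of GRCm38. A gene's value was the number of transposition cut sites in peaks that overlapped its body or the 20 kb on either side. Nuclei came from mice of genotype Dlx6aCre;Sun1/sfGFP at postnatal day 30, in which Cre driven from *Dlx6a*, a gene of forebrain inhibitory neurons, switches on a GFP fusion in the nuclear envelope. GFP therefore marks every nucleus with a history of that Cre, whatever its later class. GFP+ nuclei were sorted from cortex (2 libraries) and from hippocampus (2 libraries) and profiled by single-nucleus ATAC-seq, which marks open chromatin by where a transposase can cut. All 4 libraries shared genotype, age and sort. The labels do not say whether the libraries of a tissue came from separate animals. Each p between tissues below measures the spread between libraries. For groups of nuclei compared within each library, p measures how that difference varies across libraries. Either spread may be technical.

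POU factors carry a bipartite DNA-binding domain, a POU-specific part joined to a homeodomain, and the POU3 proteins recognise the octamer ATGCAAAT and its variants. The POU3 genes are intronless and act in neural progenitors and in migrating and maturing neurons. *Pou3f1* (also called Oct6) is also known from myelinating Schwann cells, *Pou3f2* (Brn2) and *Pou3f3* (Brn1) from cortical neurogenesis, and *Pou6f1* is a more distant family member expressed in brain whose homeodomain favours TAATTA-like sites. A cut site count reports accessibility around a gene, not its transcript, and in a sum over nuclei fewer open nuclei and less signal per nucleus cannot be told apart.

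The 4 libraries held 15306 nuclei, between 2355 and 5576 each, with 32005984 to 117290059 cut sites in 61965 to 157220 peaks. Cortex library 2 was the shallowest, with a median of 7352 cut sites per nucleus against 47236 in cortex library 1, and peaks were called in each library separately. Between 11 and 47 barcodes were shared by any pair of libraries. The 8 pan-GABA markers (*Gad1*, *Gad2* and 4 Dlx genes among them) all had counts. They summed to 1907 to 2365 CPM (cut sites scaled to a common library total, here without TMM factors) in the 4 libraries. None of the oligodendrocyte, excitatory neuron, astrocyte, microglial or endothelial markers was at 0 in the series, and their lists summed to 450 to 531, 132 to 171, 253 to 299, 346 to 475 and 90.5 to 179 CPM across libraries.

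Of the 4 genes, 3 matched the RefSeq promoter table (GRCm38): *Pou3f2* at chr4:22488367-22488616 on the minus strand, *Pou3f3* at chr1:42695518-42695767 on the plus strand and *Pou6f1* at chr15:100599985-100600234 on the minus strand. These sequences are shown because all their 250 bases lay inside a peak of every library. Capitals mark CpG dinucleotides, of which the sequences hold 18, 15 and 20, against a median of 6 in the 32851 promoters of the table.
Pou3f2: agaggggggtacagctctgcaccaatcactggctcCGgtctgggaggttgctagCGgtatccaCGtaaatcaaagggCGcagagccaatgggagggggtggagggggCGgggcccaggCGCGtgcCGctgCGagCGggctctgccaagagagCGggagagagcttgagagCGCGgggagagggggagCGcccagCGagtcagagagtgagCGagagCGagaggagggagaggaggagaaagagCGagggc
Pou3f3: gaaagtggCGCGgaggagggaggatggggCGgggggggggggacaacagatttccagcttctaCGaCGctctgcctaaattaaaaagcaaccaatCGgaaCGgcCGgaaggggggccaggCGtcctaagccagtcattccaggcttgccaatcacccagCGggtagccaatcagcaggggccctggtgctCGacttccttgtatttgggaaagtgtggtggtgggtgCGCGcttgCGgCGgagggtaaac
Pou6f1: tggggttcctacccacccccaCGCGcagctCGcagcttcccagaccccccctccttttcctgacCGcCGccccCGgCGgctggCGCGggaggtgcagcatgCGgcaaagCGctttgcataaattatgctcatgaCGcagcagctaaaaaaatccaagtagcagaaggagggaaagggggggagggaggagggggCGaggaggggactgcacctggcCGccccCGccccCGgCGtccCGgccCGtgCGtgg
Their GC content was 66.8%, 60.8% and 68.0%, where the median promoter had 52.4%. None of the 3 holds the octamer ATGCAAAT or the homeodomain core TAATTA on either strand, which 1.60% and 4.84% of all promoters in the table do.

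Further from the starts, the peaks of the *Pou3f3* window held 5 matches to ATGCAAAT and 5 to TAATTA on either strand. Peaks of the *Pou3f1* window held 3 matches, all to TAATTA, those of *Pou6f1* 1 to TAATTA, and those of *Pou3f2* none of either. Of these matches 9 lay in the regions tested later. As examples, the lines below show the single match in each of the *Pou3f3* and *Pou6f1* start regions and the *Pou3f3* match that a peak of every library covered, with the matching letters in capitals and 11 bases on each side, read from GRCm38 in the direction of the gene.
Pou3f3, -2585 bp from the start: tatgaaaatgtATGCAAATgaaaatcagca
Pou3f3, -9305 bp from the start: gtcttacgggtTAATTAaccaccccaac
Pou6f1, 316 bp after the start: tgcaatgcccgTAATTAgcataatttat
The first, at chr1:42693172-42693201, lay in an exon of *Pantr1*, the long non-coding RNA transcribed away from *Pou3f3*, and inside a peak of 3 libraries. The second lay in a *Pantr1* intron and the third in a *Pou6f1* intron, both inside a peak of all 4 libraries. A match of letters is a description and says nothing of binding.

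*Pou3f3* had the highest window counts of the POU3 genes. CPM carry TMM factors from here on unless stated otherwise. The *Pou3f3* window held 230.4 CPM in cortex library 1, 140.1 in cortex library 2, 143 in hippocampus library 1 and 220.5 in hippocampus library 2. The tissues overlapped, each with a low and a high library. The fitted difference, hippocampus minus cortex, was -0.03 ± 0.31 on the log2 scale (SE, n = 2 libraries per tissue, edgeR quasi-likelihood test, adjusted p = 1.00). Its sign turned in 3 of 11 alternative fits, none of which passed the threshold.

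*Pou3f2* was the member whose libraries separated by tissue. Its window held 54.2 and 16.8 CPM in cortex libraries 1 and 2, and 10.5 and 15.3 CPM in hippocampus libraries 1 and 2. Both cortex libraries were above both hippocampus libraries, as they were for 11.6% of the 18375 genes tested, but cortex library 2 exceeded hippocampus library 2 by little. The fitted difference was -1.46 ± 0.58 (log2, SE), a 2.75-fold higher level in cortex with an unadjusted p of 0.0407 and an adjusted p of 1.00. The value rested on cortex library 1, without which it was -0.38. With an offset for the length covered by peaks it was -0.67, but that offset moved the median of all genes to -0.50, so it is not the gene's own remaining difference. Peaks covered 6003 bp of the window in cortex library 1 against 795, 1269 and 1441 bp in the others.

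*Pou3f1* held 45.8 CPM in cortex library 1, 11.4 in cortex library 2, 32.9 in hippocampus library 1 and 39.2 in hippocampus library 2. The cortex libraries were at the extremes, 4.00-fold apart, with both hippocampus libraries between them. The fitted difference was 0.33 ± 0.61 (log2, SE, adjusted p = 1.00). Its direction followed the setting: it was 1.65 without cortex library 1 (adjusted p = 0.0397), -0.33 without cortex library 2, -0.26 over common regions alone and -0.42 over the gene body and 2 kb upstream.

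*Pou6f1* held 165, 197, 129 and 179 CPM in the same order. The tissues overlapped, and the fitted difference was -0.23 ± 0.22 (log2, SE, adjusted p = 1.00). It was -0.01 without hippocampus library 1, -0.47 without hippocampus library 2, -0.35 without cortex library 1, -0.09 without cortex library 2 and 0.01 over the gene body and 2 kb upstream. Most of these cut sites did not lie at its own start. A region between -16.9 and -13.3 kb from it, which covers the start of the neighbouring gene *Dazap2*, held 72.7%, 80.2%, 65.6% and 75.6% of the window's cut sites, and the region over the *Pou6f1* start held 20.03%, 14.3%, 20.6% and 17.7%.

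Per kb covered by peaks the POU3 genes lay closer to each other than in window counts. The densities of *Pou3f1*, *Pou3f2* and *Pou3f3* were 9.77, 9.02 and 9.33 CPM per kb in cortex library 1, and 20.7, 21.1 and 24.2 in cortex library 2. In hippocampus library 1 they were 7.05, 8.25 and 10.2, and in hippocampus library 2 they were 11.7, 10.7 and 13.6. The *Pou6f1* window was highest in each library at 23.1, 38.7, 15.4 and 26.002 CPM per kb. The region that covers the *Dazap2* start held 65.6% to 80.2% of its cut sites, so this rank is not that of the *Pou6f1* start. The larger window count of *Pou3f3* went with more covered sequence, 5789 to 24704 bp in 7 to 12 peaks.

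**Figure D1:**
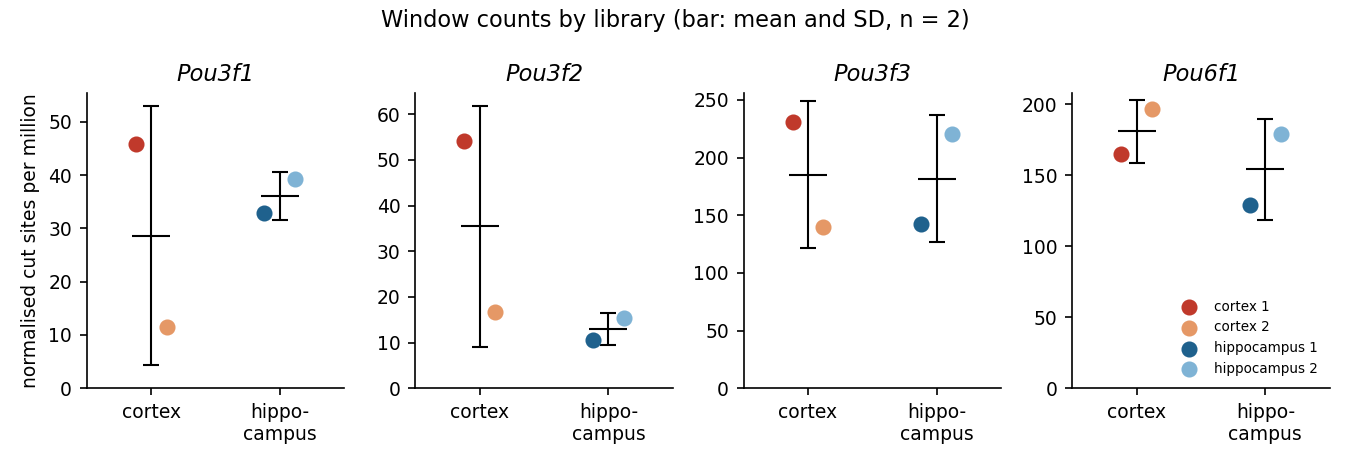
Normalised cut sites (CPM) in the window of each gene (y axis, from 0) by tissue, 1 point per library, with the mean and SD of 2 libraries as black bars. Only for Pou3f2 do both cortex points (54.2 and 16.8) lie above both hippocampus points (10.5 and 15.3).

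With 2 libraries against 2, an exact permutation test of 1 value cannot go below p = 0.333, and across all genes 0 of 18375 (0%) passed an adjusted p of 0.05 by edgeR, 413 having an unadjusted p under 0.05. DESeq2 called 215 genes, none of them a member. Of the 12 other POU genes listed, mostly of the POU2, POU4 and POU5 classes, 10 could be tested between tissues. None passed, and their median log2 difference was -0.11, against -0.13 for the 4 members and -0.01 over all genes.

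To set the members against interneuron class, nuclei were divided within each library by their own counts at *Lhx6*, a transcription factor gene of interneurons from the medial ganglionic eminence, and *Adarb2*, a gene of interneurons from the caudal one. A nucleus was called Lhx6-leaning when *Lhx6* was above and *Adarb2* below the count its depth predicts, and Adarb2-leaning in the reverse case. Lhx6-leaning nuclei numbered 695 and 594 in cortex, 1423 and 751 in hippocampus, and Adarb2-leaning nuclei 624, 845, 1408 and 793. The Lhx6-leaning side was deeper in each library, with median cut sites of 50946 against 44997.5 and 8934.5 against 8051 in cortex. In hippocampus the medians were 13777 against 12915.5 and 16125 against 15706. Cortex library 2 left 60.9% of its nuclei below expectation for both genes. Among markers tested apart from *Lhx6* and *Adarb2* themselves, 4 of 7 medial markers were higher and 0 lower in Lhx6-leaning nuclei, and 4 of 7 caudal markers were lower and 0 higher. Summed pan-GABA, excitatory and endothelial markers were lower in Lhx6-leaning nuclei in 4 of 4 libraries. Summed microglial markers were higher in 4 of 4 (329 to 454 CPM in Adarb2-leaning and 353 to 489.6 in Lhx6-leaning nuclei, without TMM factors). The part of all these marker differences in the results below was not tested.

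None of the 4 gene windows passed the threshold between the sides, where 10.5% of the 18739 genes tested did (5.45% higher and 5.07% lower in Lhx6-leaning nuclei). The median log2 difference of the members, Lhx6-leaning minus Adarb2-leaning, was -0.11, against 0.00 over all genes, and all 4 fitted values were below 0.

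*Pou3f3* came closest. In cortex library 1 its window held 213 CPM in Lhx6-leaning and 247 in Adarb2-leaning nuclei, and in cortex library 2 it held 122.5 and 144. In hippocampus library 1 the values were 140.3 and 144, and in hippocampus library 2 they were 223 and 216. The Lhx6-leaning side thus differed by -13.9% and -15.0% in the cortex libraries, and by -2.86% and 2.90% in the hippocampus libraries. The fitted difference was -0.11 ± 0.04 (log2, SE, 8 sums with library as a block, adjusted p = 0.136). It passed with nuclei taken from both ends of the order by *Lhx6* less *Adarb2* (adjusted p = 0.0415; in cortex library 2 the upper end then includes nuclei with no cut site at either gene, and its median depth was 10009 against 6040), with the division made after thinning to 5000 cut sites (0.0486), with the gene body and 2 kb upstream (-0.18, 0.0321) and without hippocampus library 2 (-0.16, 0.0263). Without cortex library 1 it was -0.06 (0.596).

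The *Pou3f3* difference itself was compared between tissues. The interaction, hippocampus minus cortex, was 0.22 ± 0.07 on the log2 scale with an unadjusted p of 0.0019 and an adjusted p of 0.0996, so it did not pass, where 1.13% of genes did. Over 6 alternatives it lay between 0.14 and 0.26 with adjusted p from 0.063 to 0.857. Nuclei of a library were also put in 5 equal groups by *Lhx6* less *Adarb2*, with CPM taken without TMM factors. *Pou3f3* had 249.97 CPM in the lowest group and 204 in the highest in cortex library 1, and 158 and 140.2 in cortex library 2. The hippocampus libraries had 134 and 134, and 229.8 and 224. The levels did not fall in order: the middle group was the highest in hippocampus libraries 1 and 2, at 151 and 264 CPM, and the second lowest group was the highest in cortex library 2, at 172 CPM. In cortex library 2, 3393 of 4191 nuclei had no *Lhx6* cut site, and groups 3 and 4 held none of either gene, so depth alone placed their nuclei. The same holds for the middle group of hippocampus library 2, which had no cut site of either gene. That of hippocampus library 1 had 227 at *Lhx6* and 234 at *Adarb2* over 1115 nuclei. These middle groups are thus not nuclei of intermediate signal.

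*Pou3f2* held 55.2 CPM in Lhx6-leaning and 51.2 in Adarb2-leaning nuclei of cortex library 1, and 15.0 and 17.5 in cortex library 2. In the hippocampus libraries it held 8.82 against 10.8 and 13.5 against 18.4. It was lower on the Lhx6-leaning side in 3 of 4 libraries, with a fitted difference of -0.16 ± 0.10 (log2, SE, adjusted p = 0.374). It was -0.33 without cortex library 1 and -0.08 without hippocampus library 2. These sums were small in the shallow libraries, with 91 and 134 cut sites behind the *Pou3f2* values of cortex library 2.

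*Pou3f1* was below 0 in both hippocampus libraries but not in cortex. Its Lhx6-leaning level differed by 0.794% and 9.35% in cortex, and by -8.23% and -23.6% in hippocampus. The 9.35% of cortex library 2 rested on 67 against 77 cut sites, so the sign in cortex is uncertain. The fitted difference was -0.12 ± 0.08 (adjusted p = 0.419) and the interaction -0.28 ± 0.16 (log2, SE, adjusted p = 0.632), which did not pass. The former was -0.03 without hippocampus library 2 and -0.19 without cortex library 1. By window count *Pou6f1* was the most even member, at -0.294%, 0.704%, -2.51% and -1.85%, with a fitted difference of -0.02 ± 0.03 (log2, SE, adjusted p = 0.841). Over 12 alternatives it lay between -0.19 and -0.0035. The region that covers the *Dazap2* start held 65.6% to 80.2% of this window's cut sites, so the evenness is not that of the *Pou6f1* start. At that start the libraries differed by -17.6%, -34.0%, -1.51% and -8.58%, as described below. An interval of 2 SE either side ran from -5.49% to 3.62% for *Pou6f1* and from -18.2% to 3.35% for *Pou3f1*.

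**Figure D2:**
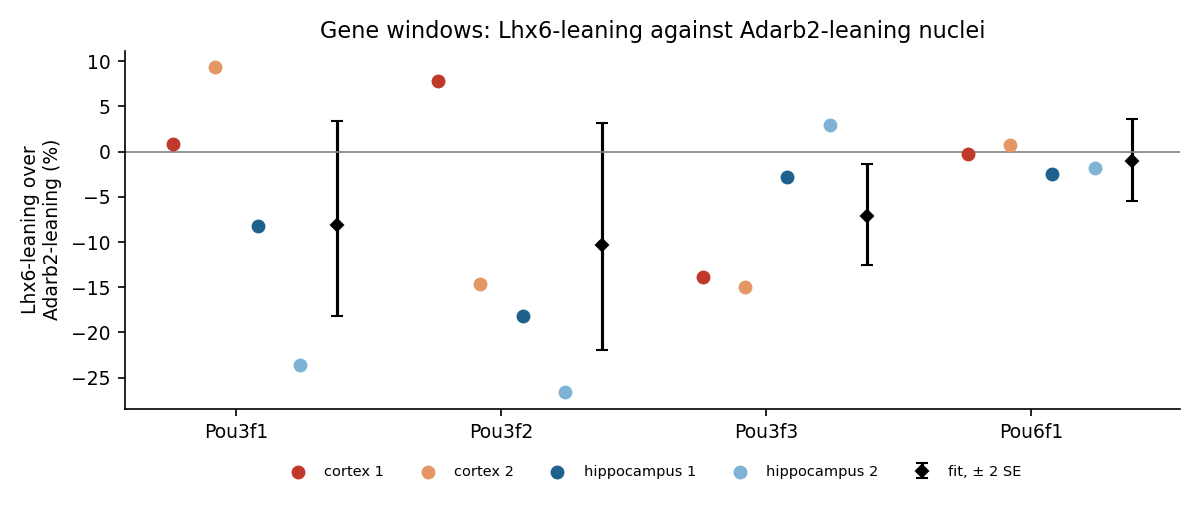
Difference of Lhx6-leaning over Adarb2-leaning nuclei in each gene's window (y axis, percent), 1 coloured point per library and the edgeR fit with 2 SE either side in black. Pou3f3 lies at -13.9% and -15.0% in cortex and near 0 in hippocampus, and Pou6f1 lies within 3% of 0 in all 4 libraries. Most cut sites of the Pou6f1 window lie in the region that covers the Dazap2 start.

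Of the other POU genes, 11 of 12 could be tested between the sides, and 1 passed, where 10.5% of all genes did. *Pou2f1* (Oct1, a broadly expressed octamer-binding factor) was lower in Lhx6-leaning nuclei in 4 of 4 libraries, at -15.1% and -18.7% in cortex and -3.85% and -4.19% in hippocampus (15.9% of genes were lower in 4 of 4) with a log2 difference of -0.15 ± 0.04 (SE, adjusted p = 0.0351). It no longer passed without either cortex library, after thinning or with a minimum of pan-GABA counts (adjusted p from 0.0603 to 0.351). Of the 10 SOX genes, some of which encode partners of POU factors, *Sox6* passed, at 0.61 ± 0.06 (log2, SE, adjusted p = 0.000104), and the median of the list was -0.03. *Sox6* is also among the medial markers already counted as higher.

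Single regions resolved the windows further. Peaks of the 4 libraries that overlapped were merged, and regions with a peak in every library (common regions) were tested, of which *Pou3f1* had 2, *Pou3f2* 1, *Pou3f3* 4 and *Pou6f1* 3. Of these 10 regions, 1 passed, against 18.4% of all 46689 common regions (8.59% lower and 9.78% higher in Lhx6-leaning nuclei).

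That region covers the *Pou3f3* start, at chr1:42691113-42699805 (GRCm38), together with the starts of *Pantr1* and AC122898.1, and it held 50.4% to 58.1% of the window's cut sites. It held 99.8 CPM in Lhx6-leaning and 122 in Adarb2-leaning nuclei of cortex library 1, and 68.3 and 86.8 in cortex library 2. In hippocampus library 1 it held 77.3 and 83.8, and in hippocampus library 2 it held 108 and 118. Lhx6-leaning nuclei were lower in 4 of 4 libraries, as in 19.3% of common regions, at -18.3%, -21.3%, -7.75% and -8.71%. The fitted difference was -0.22 ± 0.05 (log2, SE, adjusted p = 0.00684), and it lay between -0.23 and -0.16 over 10 alternatives. Without cortex library 1 the adjusted p was 0.0831. Each library's own peak over the start, taken without TMM factors, had -16.8%, -19.9%, -4.92% and -7.09%. These peaks hold most of the same cut sites, in cortex library 1 all 12906 of them, so their direction is no separate evidence.

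None of the 3 other tested *Pou3f3* regions passed. The region between -12.5 and -6.63 kb from the start, at chr1:42683234-42689139 inside *Pantr1*, had -6.18% and -3.93% in cortex against 6.34% and 8.12% in hippocampus, with a fitted difference of 0.01 ± 0.06 (log2, SE, adjusted p = 0.928). The regions 12.1 to 14.6 kb and 17.3 to 19.2 kb after the start, over *Pantr2* and AC122898.1, were lower in 3 of 4 libraries each (adjusted p = 0.579 and 0.482). There hippocampus library 2 was higher on the Lhx6-leaning side, by 17.4% and 12.4%.

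The start regions of the other members also had fitted values below 0, none of which passed. At the *Pou3f1* start (chr4:124656286-124657928, where the peak of cortex library 2 does not reach the start itself) Lhx6-leaning nuclei differed by 0.552% and 1.12% in cortex and by -31.9% and -34.8% in hippocampus, a fitted -0.29 ± 0.14 (log2, SE, adjusted p = 0.188). At the *Pou3f2* start (chr4:22486901-22490633) the differences were 6.59%, -16.6%, -18.3% and -28.4%, a fitted -0.20 ± 0.11 (adjusted p = 0.265). At the *Pou6f1* start (chr15:100598742-100601786) they were -17.6%, -34.0%, -1.51% and -8.58%, lower in 4 of 4 libraries, a fitted -0.23 ± 0.08 (adjusted p = 0.0779). Of 10451 common regions over a gene start, 65.1% had a fitted value below 0, with a median of -0.04, and 4.52% passed as lower.

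The second tested region of *Pou3f1*, at chr4:124674418-124675521, had a fitted 0.02 ± 0.18 (log2, SE, adjusted p = 0.95). The *Dazap2* region of the *Pou6f1* window had a fitted difference of -0.01 ± 0.04 (log2, SE, adjusted p = 0.883). Between tissues none of the 10 regions passed, nor did any of 46698 by edgeR (3575 had an unadjusted p under 0.05, and DESeq2 gave 352 calls). The *Pou3f2* start region had 36.8 and 16.4 CPM in cortex and 7.94 and 13.5 in hippocampus, the separation of the gene value again (log2 -1.31 ± 0.48, SE, unadjusted p = 0.0409, adjusted p = 0.624), and both cortex libraries were higher in 18.3% of all common regions.

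**Figure D3:**
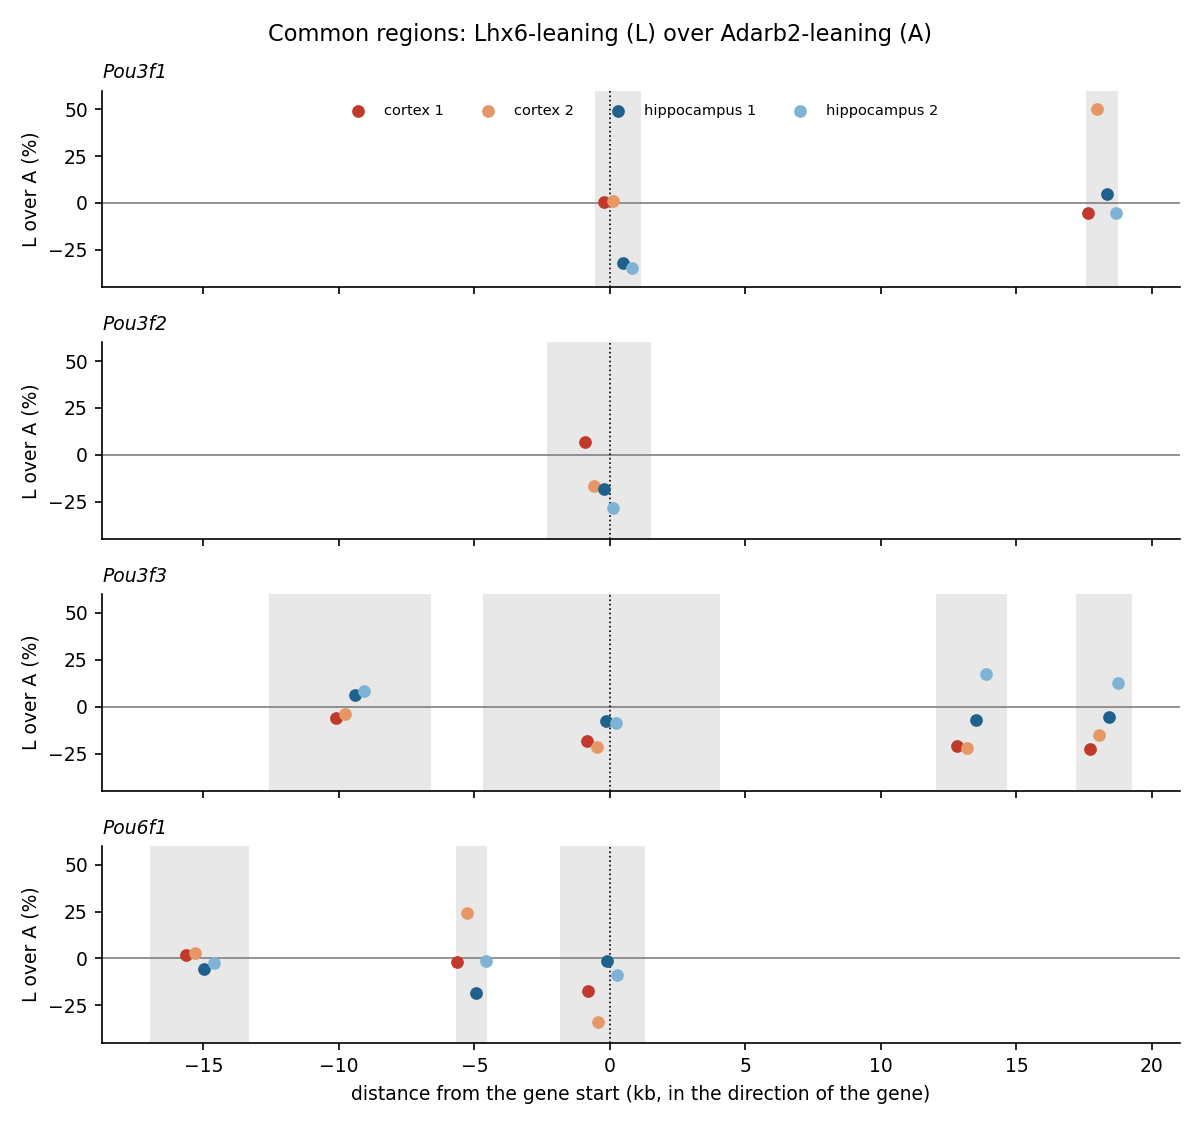
Difference of Lhx6-leaning over Adarb2-leaning nuclei (y axis, percent) in the common regions of each gene's window, against distance from the gene start (x axis, kb). Grey spans are the regions, coloured points the libraries, spread sideways for legibility. At the Pou3f3 start all 4 points are below 0, between -7.75% and -21.3%.

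Motif counts gave a second readout. For each nucleus the deposited table counts cut sites by motif, and the sums were scaled to all motif counts (with TMM factors). The counts say which sequence patterns lie in accessible peaks, not which protein binds them, and motifs of a family share sites. POU3F4 and POU5F1B had equal counts in all 15306 nuclei, so POU3F4 cannot be told apart from that motif.

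POU3F1 counts were 690 and 1478 scaled counts in cortex and 811 and 916 in hippocampus. POU3F2 had 633, 1294, 660 and 773, and POU3F3 had 702, 1633, 847 and 1013. For all 3 the cortex libraries were at the extremes, with cortex library 2 between 2.04-fold and 2.32-fold above cortex library 1. Cortex library 2 was the highest library for 43.4% of all motifs and the lowest for 38.9%. POU3F4 went the other way, with 1436 and 871 in cortex and 1441 and 1102 in hippocampus. POU6F1 had 178 and 360 in cortex and 148 and 332 in hippocampus, high in library 2 of each tissue. Fitted differences of these 5 motifs between tissues ranged from -0.43 to 0.14 (log2), every SE was at least 0.36. Single libraries set these values. Without cortex library 2 POU3F1, POU3F2 and POU3F3 were at 0.39, 0.25 and 0.47, and without cortex library 1 at -0.78, -0.85 and -0.81. POU3F4 was at -0.11 without cortex library 2, -0.07 without hippocampus library 1, 0.55 without cortex library 1 and 0.38 without hippocampus library 2. POU6F1 was at 0.50 and -0.58 without cortex library 2 and 1, and at 0.31 and -0.81 without hippocampus library 1 and 2. Between tissues 0 of 579 motifs (0%) passed by edgeR. A single motif had an unadjusted p under 0.05, and DESeq2 gave 0 calls.

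**Figure D4:**
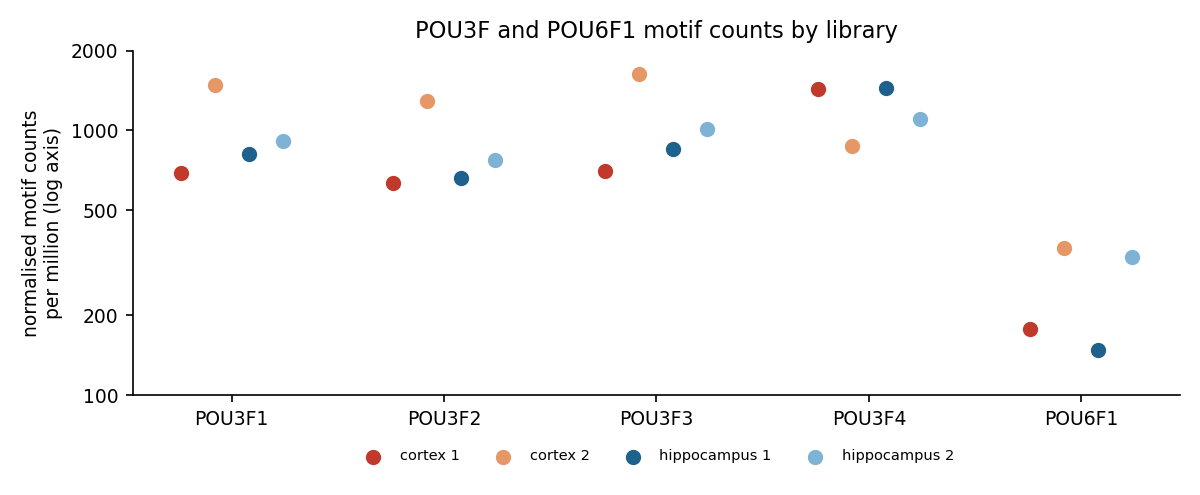
Normalised motif counts, scaled to a common library total (y axis, log scale) of 5 motifs, 1 point per library. POU3F1, POU3F2 and POU3F3 are highest in cortex library 2 and lowest in cortex library 1, and POU3F4 is lowest in cortex library 2.

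Between Lhx6-leaning and Adarb2-leaning nuclei the motif differences were small. POU6F1 was lower in Lhx6-leaning nuclei and 2 of 4 POU3F motifs higher, where 33.2% of all motifs passed and 13.3% were called higher and 19.9% lower.

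POU6F1 had 176 against 182 scaled counts (Lhx6-leaning against Adarb2-leaning nuclei) in cortex library 1 and 348 against 369 in cortex library 2. In the hippocampus libraries it had 148 against 150.5 and 332 against 336. It was lower in 4 of 4 libraries, as 32% of motifs were, at -3.24%, -5.66%, -1.93% and -1.29%, and the fitted change was -3.02% (log2 -0.04 ± 0.01, SE, adjusted p = 0.0148). Without cortex library 2 the adjusted p became 0.0515.

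POU3F1 had 692 against 687 and 1501 against 1476 in cortex. In hippocampus it had 824 against 809 and 924 against 916.5. It was higher in Lhx6-leaning nuclei in 4 of 4 libraries (19.9% of motifs were), by 0.787%, 1.73%, 1.87% and 0.824%, a fitted 1.30% (adjusted p = 0.0366). POU3F4 was higher by 0.131%, 1.31%, 2.76% and 1.11%, a fitted 1.32% (adjusted p = 0.0464). Both calls were lost in 5 of 10 alternatives, among them nuclei from both ends of the order (adjusted p = 0.17 and 0.169), thinning (0.0624 and 0.0696) and the pan-GABA minimum (0.0845 and 0.104). POU3F2 had 0.906%, 1.23%, 2.13% and -0.0379% (adjusted p = 0.112), and passed without hippocampus library 2 (0.0115). POU3F3 had 0.626%, 1.23%, 1.07% and 0.683% (adjusted p = 0.102). A p that misses the threshold does not show that these motifs behave unlike POU3F1.

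**Figure D5:**
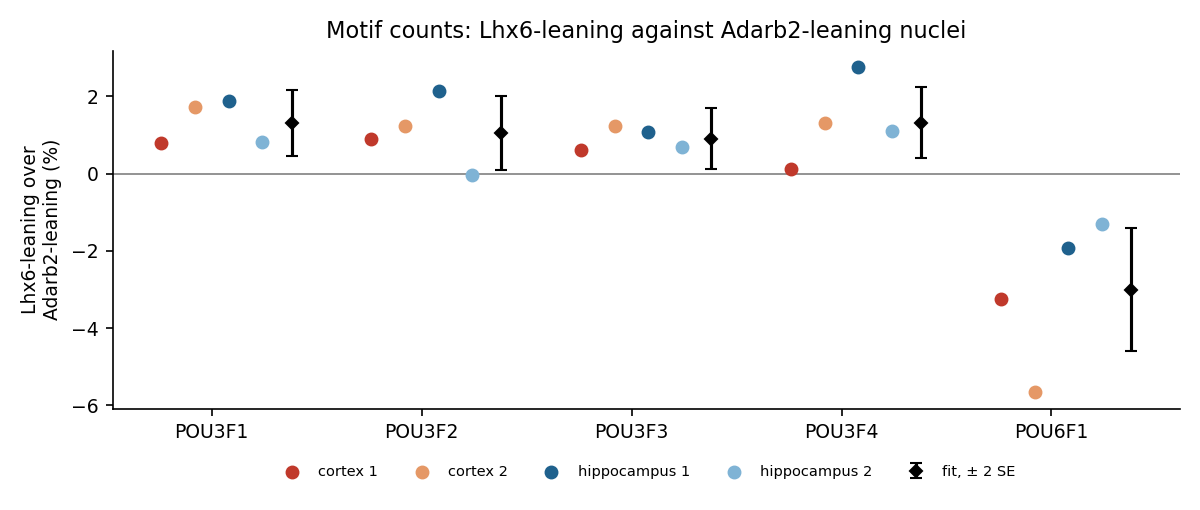
Difference of Lhx6-leaning over Adarb2-leaning nuclei in motif counts (y axis, percent), 1 coloured point per library and the fit with 2 SE either side in black. The POU3F points lie between -0.0379% and 2.76%, and all POU6F1 points lie below 0, between -1.29% and -5.66%.

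Of the 10 other POU motifs, 3 were higher and 3 lower. POU2F1, POU2F2 and POU5F1B, which shares its counts with POU3F4, were higher in Lhx6-leaning nuclei by 2.10%, 1.37% and 1.32%. The 3 POU4F motifs were lower, at -2.21% (POU4F1), -2.89% (POU4F2) and -2.32% (POU4F3). None of the POU3F motifs and POU6F1 passed the interaction with tissue (3.8% of motifs did). The nearest was POU6F1, whose interaction of 0.04 ± 0.02 (log2, SE) had an adjusted p of 0.359, or 0.0252 without cortex library 1.

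As a description, genes whose pattern over the 16 sums (4 combinations of *Lhx6* and *Adarb2* above or below expectation in 4 libraries, centred within library) most resembled a member were sought among at least 15314 genes. For *Pou3f3* these were *Gipc3* (Pearson r = 0.962), *Tep1* (0.932) and *Mrpl44* (0.93). For *Pou3f1* they were *Mier3* (0.969) and *Plekha4* (0.913), for *Pou3f2* *Ccsap* (0.874), *Armc12* (0.846) and *Psmg1* (0.841), and for *Pou6f1* *Rbm12* (0.94) and *Lbx2* (0.896). The sums of a library share its depth, and the member patterns themselves varied little, with SDs of 0.04 (*Pou6f1*) to 0.14 (*Pou3f1*) on the log2 scale.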

How the data were processed

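Accessible chromatin was measured in 4 single-nucleus libraries. Per the submitters' processing notes the authors used Cell Ranger ATAC 1.2.0 with GRCm38 (mm10), and the deposited tables hold raw counts of cut sites per peak and nucleus and of cut sites per motif and nucleus, with no normalization. The authors called peaks per library, so a count exists only inside a library's own peaks. Motif positions and matrices were not used here.

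Counts were summed over nuclei per library, or per library and gate side, since nuclei are not replicates. Genes came from GENCODE M21. Peaks overlapping by 1 bp or more gave 185260 merged regions, 46698 of them common. All genes, motifs or regions were fitted with edgeR 4.0.16 (R 4.3.3; robust quasi-likelihood test, TMM, filterByExpr, two-sided), with Benjamini-Hochberg adjustment over all features and a threshold of 0.05. For the gate, library was a block, and genes or regions in the *Lhx6* and *Adarb2* windows were left out. For motifs, edgeR's approximate deviance, used at dispersions up to 0.0001, failed on counts this large, and the exact negative binomial deviance took its place. Alternatives were DESeq2 1.42.0, another normalization, no filter, other gates and windows, a replicate block and each library left out.

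In counts simulated on these libraries, 0 of 100 genes changed by 2-fold and 2 of 100 changed by 4-fold were recovered between tissues. Between gate sides 100 of 100 were recovered at both sizes, with 10 false calls among the other genes (1 between tissues). Smaller changes, such as those of the members between gate sides, were not simulated, so recovery at their size is not known. The simulated sums had no library effect. The members, lists and tests were chosen with earlier results of these data known. The 4 members were always named, other POU and SOX genes only past a threshold, and for regions the one over each gene start, the common region with the highest mean elsewhere and any past the threshold. The remaining *Pou3f3* regions were named after their values were seen. Likeness used genes with a mean of at least 20 CPM (without TMM factors) whose windows do not overlap the member's, the 3 highest each. A few results that these rules name, 1 motif among them, are not reported here. Sequences came from RefSeq and GRCm38.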

Additional observations from a re-analysis of the deposited data

Results flagged for a closer look

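*Sox5* was the 1 gene of the 10 on the SOX list whose contrast of Lhx6-leaning against Adarb2-leaning nuclei passed for a difference between tissues. Of all 18739 genes tested, 1.13% did. Lhx6-leaning nuclei differed by -7.82% and 3.14% in cortex, and by 19.97% and 17.9% in hippocampus. The interaction of gate and tissue was 0.31 ± 0.06 (log2, hippocampus minus cortex, SE, edgeR adjusted p = 0.00654), while the pooled contrast, 0.10 ± 0.06, did not pass (adjusted p = 0.378).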

How the results depend on the processing

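Leaving out 1 library at a time gave 0 to 601 genes, 0 to 116 motifs and 0 to 3184 regions between tissues, the highest each without cortex library 1, against 0 in all 3 with every library. Between gate sides it gave 1103 to 1541 genes, 125 to 164 motifs and 6106 to 6598 regions (1973, 192 and 8576 with every library), and for the interaction 40 to 508 genes and 7 to 61 motifs (211 and 22). Changes over 1.5-fold came without cortex library 1 (1103 gate genes, 40 interaction genes, 61 interaction motifs), cortex library 2 (1 tissue motif, 24 tissue regions, 125 gate motifs, 508 interaction genes), hippocampus library 1 (1220 gate genes, 43 interaction genes, 11 interaction motifs) and hippocampus library 2 (83 interaction genes, 7 interaction motifs). DESeq2 called 215 genes and 352 regions between tissues, and 24 genes and 6 motifs for the interaction. Common regions alone gave 1 gene between tissues, as did the gene body with 2 kb upstream, and nuclei from both ends of the order gave 104 genes for the interaction. The causes were not tested.

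With a replicate block, edgeR called 0 genes, 0 motifs and 0 regions between tissues. The correlation of deviations of same-numbered libraries was 0.16 for genes, 0.68 for motifs and -0.04 for regions, and with 2 pairs the numbers are not shown to pair the libraries.

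Over the members, named genes, motifs and regions, 377 values under an alternative kept their direction and side of the threshold, 18 lost and 7 gained a call, and 49 that were not called in either fit changed sign. No called value changed sign. Gene windows at *Pou3f2* and *Pou3f1* in cortex library 2 rest on 586 and 400 cut sites, which limits their precision. Intervals cover only the spread between libraries or, for the gate, the spread of the within-library difference across them.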

Other observations

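The letters of common regions were counted beside the motif results, in a window of fixed length at the centre of each region and on both strands. ATGCAAAT was present in 4.12% of 4565 regions higher in Lhx6-leaning nuclei, in 2.87% of 4011 higher in Adarb2-leaning nuclei and in 1.88% of 38113 not called. TAATTA was present in 9.90%, 10.2% and 5.49% of the same sets. The median GC content of these centres was 46.8%, 50.5% and 52.2%. The shares were not tested, nor was the part of base composition in them.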
